A study of Mus musculus with 36 samples.

Results

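The genes described here are 8 members of the HSP70 superfamily that act in the cytosol or in mitochondria: Hspa1a, Hspa1b, Hspa2, Hspa4, Hspa4l, Hspa8, Hspa9 and Hsph1. They were chosen by gene symbol in the platform's annotation, out of 18193 genes with a probe set of their own, and every probe set that names a member was kept, which gave 25 of the 45037 probe sets tested. A probe set is a group of short oligonucleotides on the array that together read 1 transcript or gene. All 25 named a single gene: 1 read Hspa1a, 1 Hspa2, 2 Hsph1, 3 Hspa1b, 4 each Hspa4 and Hspa8, and 5 each Hspa4l and Hspa9.

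The study measured gene expression in whole brain and in liver of male mice aged 12 to 13 weeks, from the inbred strains C57BL/6J and AKR/J as well as DBA/2J. Sleep-deprived mice were kept awake for 6 h from light onset, and home-cage controls were killed at the same time of day, 6 h after light onset (zeitgeber time 6). With 2 tissues, 3 strains and 2 conditions there were 12 groups of 3 arrays, and each array held RNA pooled from 3 mice, so the spread between replicates is that between pools. The labels name no genotype beyond the strain and no agent, and RNA came from whole tissue. The labels of AKR/J controls 2 and 3 in each tissue are at odds with themselves, since 1 label gives zeitgeber time 0 and another 6. They were kept as controls, and values without them are given where they end a call.

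Values are log2 intensities, on which a difference of 1 is a doubling. The tissue labels held against marker genes: the 6 neuron markers stood at or above percentile 98.2 of all probe sets in brain, and the 6 hepatocyte markers at or above percentile 99.3 in liver. Arrays of a group correlated at 0.984 or higher. Some arrays stood apart in an earlier account of these data. In brain these were 3 sleep-deprived arrays, 1 per strain, whose values spread less (SD over probe sets of 1.90 to 1.96, against 1.97 to 2.05 on the other 15), and 2 controls in which the Actb probe sets for the 3′ and the 5′ end, which tell of RNA quality, differed by 0.98 and 1.13, against at most 0.89 elsewhere. In liver, control 1 of DBA/2J stood at 2.16 on that measure and the other 17 arrays at 1.45 or lower. The growth hormone gene Gh, a marker of pituitary tissue, read 9.83 to 11.41 in brains of sleep-deprived AKR/J mice and 4.68 to 5.18 in their controls. Gh read 4.24 to 12.16 in sleep-deprived and 10.55 to 11.92 in control C57BL/6J brains, and 10.92 to 12.36 in sleep-deprived and 10.36 to 12.87 in control DBA/2J brains. The part of any of these arrays in a result below was not tested except where a value without them is given.

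HSP70 proteins bind stretches of unfolded protein and release them in a cycle driven by ATP. J-domain proteins hand them their clients and speed the hydrolysis of ATP, while nucleotide exchange factors, among them the HSP110 proteins Hsph1, Hspa4 and Hspa4l, which are distant relatives of HSP70, swap ADP for ATP so that the client is let go. Hspa8 is the constitutive cytosolic form, also known for uncoating clathrin vesicles at synapses, Hspa1a and Hspa1b are the forms induced by heat and other stress through the transcription factor HSF1, Hspa2 is best known from male germ cells, and Hspa9 (mortalin) works in the mitochondrial matrix, where it helps to pull in and fold imported proteins.

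The 250 bases before the transcription start are shown for the 2 neighbouring inducible genes and for Hsph1, the member with the largest change in liver, because HSF1 acts through inverted repeats of GAA in promoters. They come from RefSeq on the build GRCm38.p6, all on the minus strand and written 5′ to 3′, at chr17:34972157-34972406 for Hspa1a, chr17:34959239-34959488 for Hspa1b and chr5:149636337-149636586 for the more upstream of the 2 starts listed for Hsph1. Capitals mark the paired repeat, GAANNTTC or TTCNNGAA, each of which reads the same on both strands.
Hspa1a: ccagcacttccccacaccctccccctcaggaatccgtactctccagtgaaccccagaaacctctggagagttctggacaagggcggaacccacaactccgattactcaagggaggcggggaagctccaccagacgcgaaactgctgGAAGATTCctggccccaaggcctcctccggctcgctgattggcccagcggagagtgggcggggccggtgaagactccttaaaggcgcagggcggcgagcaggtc
Hspa1b: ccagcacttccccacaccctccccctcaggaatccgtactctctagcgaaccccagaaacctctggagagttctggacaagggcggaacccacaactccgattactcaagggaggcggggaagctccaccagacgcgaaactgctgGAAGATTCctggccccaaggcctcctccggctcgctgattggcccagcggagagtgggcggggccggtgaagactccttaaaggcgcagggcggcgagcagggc
Hsph1: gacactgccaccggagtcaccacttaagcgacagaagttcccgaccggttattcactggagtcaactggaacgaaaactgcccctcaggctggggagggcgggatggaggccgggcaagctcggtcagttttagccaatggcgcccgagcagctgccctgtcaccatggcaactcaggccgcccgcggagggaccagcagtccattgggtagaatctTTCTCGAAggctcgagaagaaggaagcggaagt
The windows of Hspa1a and Hspa1b were identical at 247 of 250 bases (98.8%), and both held GAAGATTC from 104 to 97 bases before the start. Hsph1 held TTCTCGAA from 33 to 26 bases before its start. The paired repeat occurred in 12.8% of 32851 windows of this length, and the longer form with 1 more unit (GAANNTTCNNGAA, or TTCNNGAANNTTC for the other strand), which contains the shorter, in 0.466% and in none of the matched members. RefSeq windows were matched for 6 of the 8 members, all but Hspa8 and Hspa9. Those of Hspa2, Hspa4 and Hspa4l did not hold the paired repeat, which says only that these letters are not in this window. A CCAAT box (CCAAT, or ATTGG on the other strand), found in 33.8% of windows, stood from 67 to 63 bases before the start of both inducible genes and was also present in Hsph1 and Hspa2, while TATAAA, found in 12.4%, was in none of the matched members.

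The first comparison asked how the members responded to sleep loss in the brain, averaged over strains. The inducible HSP70 Hspa1b rose most, on all 3 of its probe sets, and the HSP110 gene Hsph1 rose on both of its own. Hspa1a rose on its single probe set, and Hspa8 and Hspa4l each rose on 1. Hspa2, Hspa4 and the mitochondrial Hspa9 had no probe set past the threshold. In all, 8 of 25 probe sets, from 5 of the 8 genes, rose and 0 fell at an adjusted p under 0.05 (limma, Benjamini-Hochberg adjustment over all probe sets), where 0.688% of all probe sets rose and 1.04% fell. The median change of the 25 was 0.17, and that of all probe sets was -0.00. With AKR/J left out 5 passed, which were those of Hspa1b and Hsph1.

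Among the inducible forms, the Hspa1b probe set with the smallest p, 1427127_x_at, read 7.07, 7.30 and 7.46 in sleep-deprived C57BL/6J brains, against 6.13, 6.23 and 6.24 in control brains. Sleep-deprived AKR/J brains gave 7.96, 7.58 and 6.98, and AKR/J controls 6.03, 5.50 and 5.83. For DBA/2J the values were 7.45, 7.00 and 7.36 after sleep deprivation and 5.41, 5.29 and 5.80 in controls. All 9 sleep-deprived arrays lay above all 9 control arrays, across strains as well as within them. The lowest sleep-deprived value of each strain came from its array of narrow spread. The mean change was 1.52 ± 0.12 (standard error), or 2.87-fold, with a limma adjusted p of 2.13e-06. Without the 5 brain arrays that stand apart it was 1.74 (adjusted p = 6.21e-07). The other Hspa1b probe sets rose by 1.43 ± 0.15 and 1.20 ± 0.11, and the 3 correlated at 0.98 to 0.99 over the 18 brain arrays. Hspa1a, on 1452388_at, read 5.73 to 6.66 after sleep deprivation and 5.34 to 5.94 in controls, so the conditions overlapped. Its mean change was 0.49 ± 0.10 (1.41-fold, adjusted p = 0.0139 by limma), and with AKR/J left out it was 0.36 (adjusted p = 0.4296), without AKR/J controls 2 and 3 0.48 (0.0878). Since the 2 genes are near-identical copies, how much each contributes to these 4 probe sets is uncertain.

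**Figure D1:**
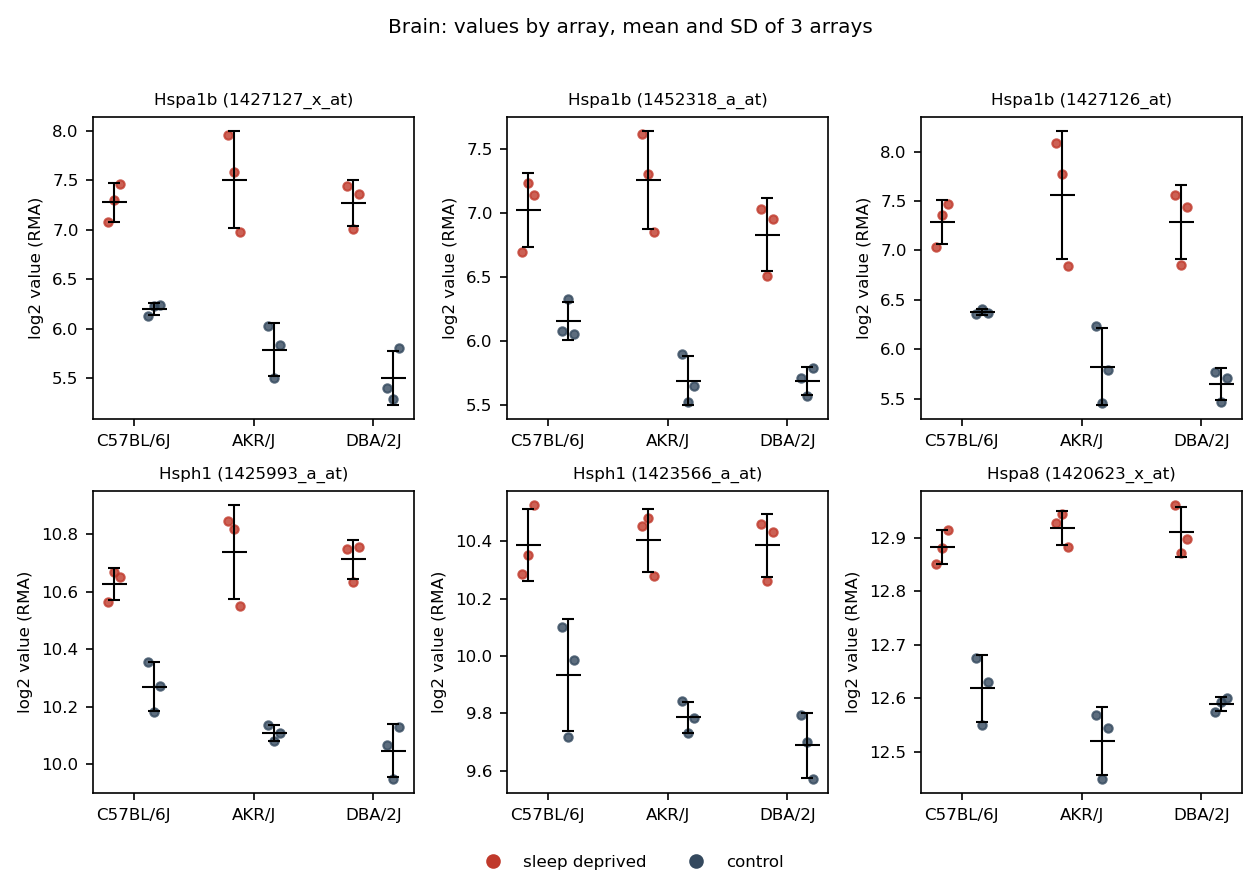
Values of 6 probe sets of Hspa1b, Hsph1 and Hspa8 in brain by strain (x axis) on the log2 scale (y axis), sleep-deprived arrays in red left of control arrays in dark blue, with the mean and SD of 3 arrays. For Hspa1b 1427127_x_at the sleep-deprived arrays lie between 6.98 and 7.96 and the controls between 5.29 and 6.24.

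Hspa8, the constitutive form, gave a smaller change in brain. On 1420623_x_at, C57BL/6J brains read 12.85, 12.88 and 12.91 after sleep deprivation and 12.68, 12.55 and 12.63 without it. AKR/J brains read 12.93, 12.94 and 12.88, against 12.57, 12.45 and 12.54 in controls, and DBA/2J brains 12.96, 12.87 and 12.90, against 12.57, 12.59 and 12.60. The conditions did not overlap in any strain, and the rise of 0.33 ± 0.04 (1.25-fold) had a limma adjusted p of 0.000273, which was 0.0562 with AKR/J left out. The other 3 gave 0.30 ± 0.09 (adjusted p = 0.1086), 0.20 ± 0.07 (0.1547) and, for 1431182_at, -0.02 ± 0.10 (0.9695). Without the arrays that stand apart, Hspa8 passed on 3 probe sets, with 0.44 (adjusted p = 0.0017), 0.33 (0.000885) and 0.33 (0.0026). The suffix _x_at marks probe sets with probes that also match other sequences, so part of the signal of 2 Hspa8 probe sets may come from related copies. Hspa2 read 6.80 to 7.44 in sleep-deprived and 6.73 to 7.38 in control brains, and its change of 0.02 had a 95% interval of -0.11 to 0.16.

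Of the HSP110 genes, Hsph1 changed most in brain. On 1425993_a_at it read 10.56, 10.67 and 10.65 in sleep-deprived and 10.35, 10.18 and 10.27 in control C57BL/6J brains. AKR/J had 10.85, 10.82 and 10.55 after sleep deprivation, against 10.14, 10.08 and 10.11 in controls, and DBA/2J 10.75, 10.64 and 10.76, against 10.07, 9.95 and 10.13. The 9 sleep-deprived arrays again lay above the 9 controls. The rise was 0.55 ± 0.05 (1.46-fold, adjusted p = 1.32e-05 by limma) here and 0.59 ± 0.06 on 1423566_a_at (adjusted p = 4.91e-05). Hspa4l read 9.00 to 9.29 in sleep-deprived and 8.19 to 9.02 in control brains on 1418253_a_at, with the conditions apart within each strain, and rose by 0.38 ± 0.09 (limma adjusted p = 0.0434). That call was lost under 18 of 26 alternative settings, among them leaving out any of 14 single arrays (adjusted p = 0.0572 to 0.102) or AKR/J controls 2 and 3 (0.137). Its other 4 probe sets gave -0.00 to 0.21, the nearest to the threshold with an adjusted p of 0.065. Hspa4 had changes of -0.16, 0.38, 0.17 and -0.03 on its 4 probe sets, none past the threshold (lowest adjusted p 0.215 by limma). Without the arrays that stand apart, Hspa4 1435194_at passed at 0.23 (adjusted p = 0.0248) and Hspa4l 1449010_at at 0.24 (0.0104), which took the brain count to 12.

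Mitochondrial Hspa9 had no probe set past the threshold in brain. On 1418504_at it read 9.17 to 9.50 after sleep deprivation and 9.18 to 9.47 in controls, and the difference of 0.01 had a 95% interval of -0.11 to 0.12. Over the 5 probe sets the changes ran from -0.04 to 0.13, and the intervals together spanned -0.21 to 0.34. Fewer cells of a type and less RNA per cell cannot be told apart in whole tissue, here or in any comparison below. Of 13 marker lists checked in brain, 1 gene passed, Opalin, which was lower and belongs to the oligodendrocyte list of 5. The summed log2 level of that list was 47.42 to 49.05 on sleep-deprived and 49.40 to 50.15 on control arrays, and its part in the changes of the members was not tested.

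The same comparison was made in liver. Hsph1 and Hspa8 led: their 5 responsive probe sets had the 5 smallest p-values of all 45037 probe sets on the array. Hspa1b rose on all 3 probe sets, Hspa4l on all 5 and Hspa4 on 1 of 4. Hspa1a, Hspa2 and Hspa9 had none past the threshold. Together 14 of 25 probe sets, again from 5 genes, rose and 0 fell, where 2.4% of all probe sets rose and 1.21% fell, with a median change of 0.36 for the 25 and -0.01 for all.

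The inducible Hspa1b had its largest spread in liver. On 1427127_x_at, sleep-deprived C57BL/6J livers read 7.42, 7.88 and 8.69 and control livers 5.41, 6.26 and 6.63. In AKR/J the sleep-deprived values were 7.19, 7.71 and 9.46, with controls at 5.49, 6.34 and 5.86. Values in DBA/2J were 8.13, 8.12 and 7.79, against 6.29, 6.20 and 6.64. Sleep-deprived and control arrays did not overlap, but array 3 of sleep-deprived AKR/J stood well above its 2 partners on all 3 Hspa1b probe sets. The mean rise was 1.92 ± 0.25, or 3.78-fold (limma adjusted p = 0.000125), and the others rose by 1.95 ± 0.26 (adjusted p = 0.000155) and 1.65 ± 0.27 (adjusted p = 0.0011). Hspa1a read 2.83 to 3.15 in sleep-deprived and 2.71 to 2.96 in control livers, near the lowest value in the whole table, 2.12, where small changes are poorly measured (0.14, adjusted p = 0.2283).

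**Figure D2:**
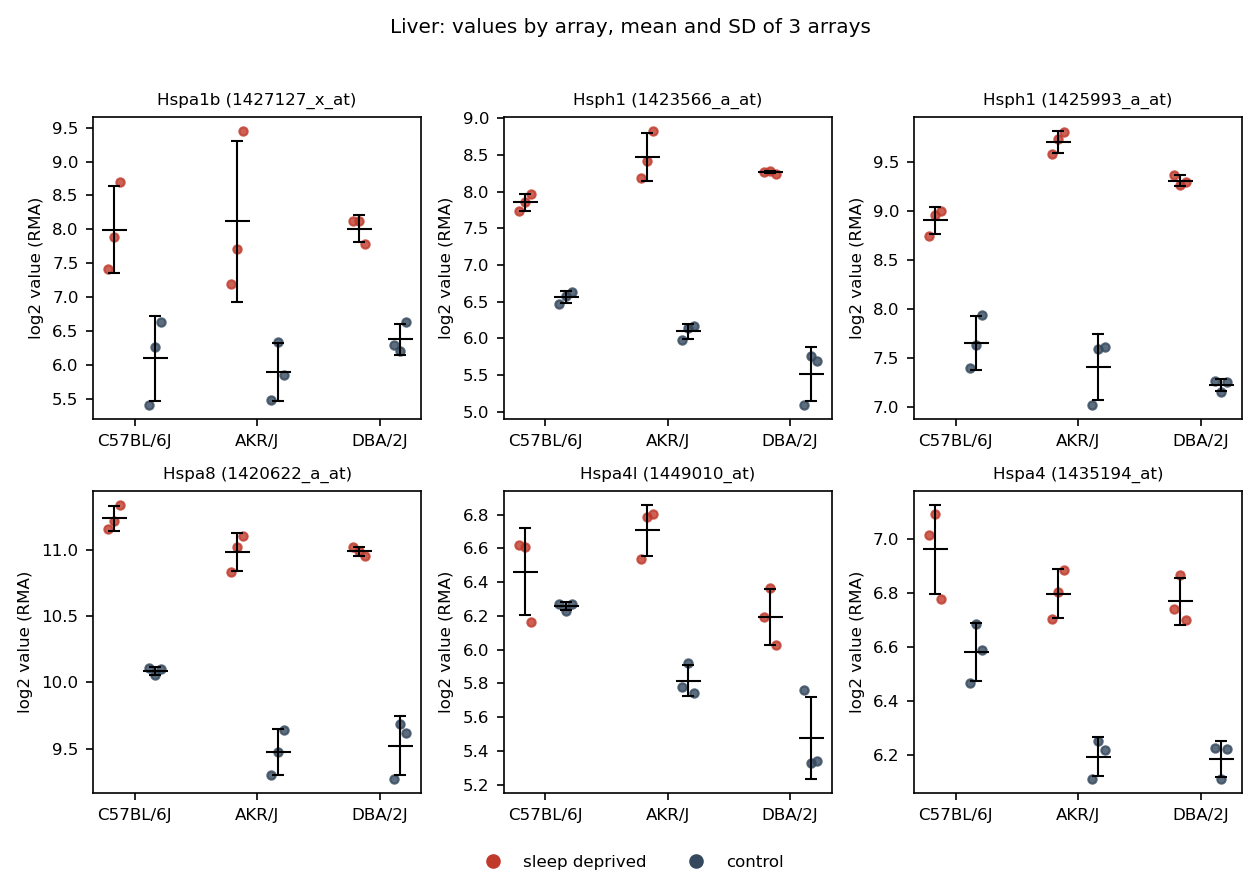
Values of 6 probe sets in liver by strain (x axis) on the log2 scale (y axis), sleep-deprived arrays in red left of control arrays in dark blue, with the mean and SD of 3 arrays. For Hsph1 1423566_a_at the sleep-deprived arrays lie between 7.74 and 8.83 and the controls between 5.09 and 6.64, with the lowest controls in DBA/2J.

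Hspa8 rose in liver on 3 of its 4 probe sets. On 1420622_a_at, sleep-deprived C57BL/6J livers read 11.16, 11.22 and 11.34, against 10.11, 10.06 and 10.10 in controls. AKR/J livers gave 10.83, 11.02 and 11.10 after sleep deprivation and 9.30, 9.48 and 9.64 in controls. The DBA/2J values were 11.02, 10.99 and 10.96, against 9.27, 9.68 and 9.62. Every sleep-deprived array exceeded every control by a wide margin, and C57BL/6J had the highest values in both conditions. The rise was 1.38 ± 0.06, or 2.59-fold (adjusted p = 1.74e-10 by limma), and the 2 _x_at probe sets rose by 1.19 ± 0.06 and 1.01 ± 0.05. The fourth, 1431182_at, gave 0.12 ± 0.08 (adjusted p = 0.5295), where C57BL/6J had 0.38, AKR/J 0.33 and DBA/2J -0.36. Hspa2 read 3.67 to 4.22 after sleep deprivation and 3.56 to 4.01 in controls (0.12, 95% interval -0.04 to 0.29).

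Hsph1 had the smallest p-value of the array in liver. On 1423566_a_at, C57BL/6J read 7.74, 7.86 and 7.97 after sleep deprivation and 6.47, 6.58 and 6.64 in controls. AKR/J livers gave 8.18, 8.42 and 8.83 after sleep deprivation, against 5.98, 6.14 and 6.17, and DBA/2J livers 8.27, 8.29 and 8.25, against 5.09, 5.76 and 5.70. The order of the strains turned round between conditions: C57BL/6J was highest among controls and lowest among sleep-deprived livers. The mean rise was 2.14 ± 0.09, or 4.41-fold (limma adjusted p = 1.2e-10), and 1425993_a_at rose by 1.88 ± 0.08, or 3.68-fold (1.56e-10). Without control 1 of DBA/2J, the lowest of the 18 arrays, the rise on 1423566_a_at was 2.07.

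Hspa4l, a second HSP110 gene, rose by 0.36 to 0.73 on its 5 liver probe sets. On 1449010_at the C57BL/6J values were 6.62, 6.61 and 6.16 after sleep deprivation and 6.27, 6.23 and 6.27 in controls. For AKR/J they were 6.54, 6.79 and 6.80, against 5.78, 5.92 and 5.75, and for DBA/2J 6.19, 6.36 and 6.03, against 5.76, 5.33 and 5.34. Groups were apart in AKR/J and DBA/2J and overlapped in C57BL/6J. The mean rise of 0.61 ± 0.08 had a limma adjusted p of 0.00011, and that of 1418253_a_at (0.73 ± 0.10) one of 0.000285. With AKR/J left out the other 3 did not pass, 1429106_at at 0.19 (adjusted p = 0.36), 1439093_at at 0.30 (0.3551) and 1458385_at at 0.16 (0.5725), and 1458385_at was also lost without any of 9 single arrays or without AKR/J controls 2 and 3 (0.0619).

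Hspa4, the remaining HSP110 gene, had probe sets that did not move together. On 1435194_at, C57BL/6J livers read 7.02, 7.10 and 6.78 after sleep deprivation and 6.47, 6.69 and 6.59 in controls. AKR/J livers read 6.71, 6.80 and 6.89, against 6.11, 6.25 and 6.22 in controls, and DBA/2J livers 6.74, 6.87 and 6.70, against 6.23, 6.11 and 6.22. Here all sleep-deprived arrays exceeded all controls, and the rise was 0.52 ± 0.05 (1.44-fold, adjusted p = 1.2e-05 by limma). On 1416146_at the change was -0.15 ± 0.05 (adjusted p = 0.1349), with 8.66 to 9.13 after sleep deprivation and 8.92 to 9.36 in controls. The other 2 gave 0.33 ± 0.11 on 1416147_at (adjusted p = 0.1282) and -0.09 ± 0.06 on 1440575_at (adjusted p = 0.5448). Of these, 1416147_at passed with AKR/J left out (0.54, 0.0116) and without sleep-deprived AKR/J array 1 (0.44, 0.0039). Correlations between the 4 over the liver arrays, which share groups, ran from -0.72 to 0.59. The annotation does not tell which transcript each reads.

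Hspa9 did not pass in liver either. On 1418504_at it read 10.52 to 10.74 in sleep-deprived and 10.40 to 10.76 in control livers, with a difference of 0.03 (95% interval -0.08 to 0.13). The 5 probe sets changed by -0.08 to 0.18, and the widest interval, of 1431274_a_at, was -0.16 to 0.52. On that probe set control 1 of DBA/2J, the array of raised 3′ to 5′ difference, read 6.04 and the other 8 controls 7.31 to 7.80, and without it the change was 0.01. Markers of other cells also moved in liver: 3 of 5 endothelial markers, Pecam1 (0.42), Flt1 (0.45) and Tek (0.36), were higher, and their list summed to 26.81 to 28.50 on sleep-deprived and 24.53 to 27.48 on control arrays. The neuron list had Syt1 lower (-0.58), and the hepatocyte enzyme Tat was higher (0.83), while the other hepatocyte markers did not pass. The part of these in the changes of the members was not tested.

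**Figure D3:**
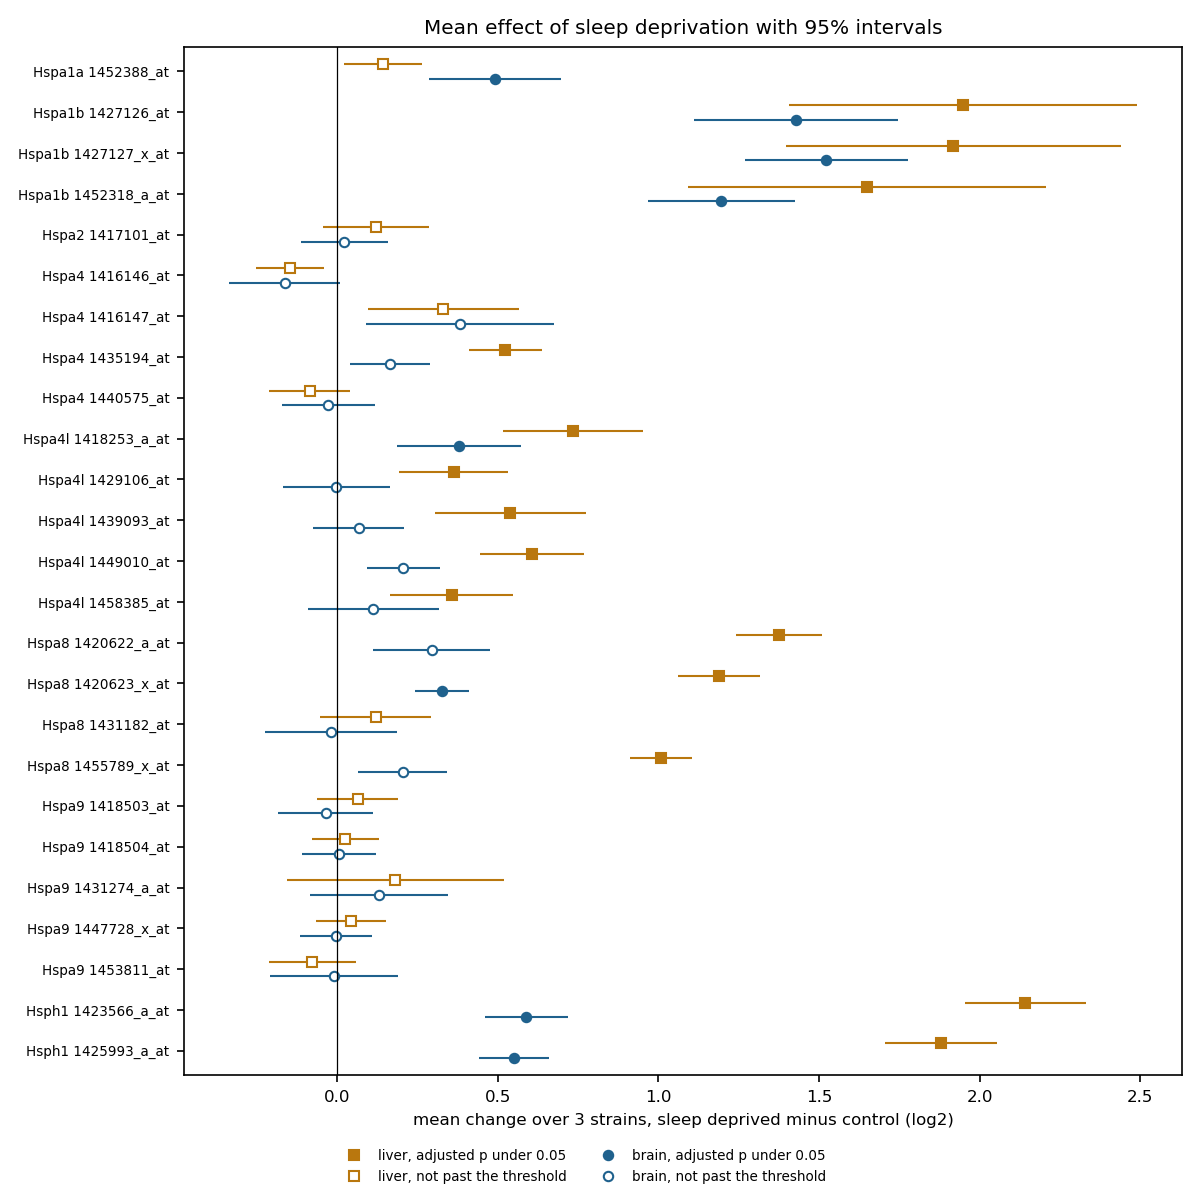
Mean change over 3 strains, sleep-deprived minus control, on the log2 scale (x axis) for all 25 probe sets (y axis), in liver (squares) above brain (circles), with 95% intervals. Filled symbols passed an adjusted p of 0.05. The symbols of Hsph1 and of 3 Hspa8 probe sets lie further right in liver than in brain. Of these 3, only 1420623_x_at is filled in brain. The open symbols of Hspa9 and Hspa2 lie near 0.

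Whether the response differed between the tissues was tested on the changes alone, since the tissues were taken as normalised apart and their levels were not compared. Hsph1 and Hspa8 responded more in liver, and Hspa1b, the largest responder in brain, had no probe set past the threshold. In liver minus brain, 7 of 25 probe sets had a larger change in liver and 0 a smaller one, where 1.02% of all probe sets had a larger and 0.366% a smaller one. Hsph1 differed by 1.55 ± 0.11 and 1.33 ± 0.10 (limma adjusted p = 6.94e-10 and 1.01e-09). Hspa8 differed by 1.08 ± 0.11, 0.86 ± 0.07 and 0.80 ± 0.08 on its 3 responsive probe sets. Smaller differences were called for Hspa4 1435194_at (0.36 ± 0.08, adjusted p = 0.014) and Hspa4l 1449010_at (0.40 ± 0.10, adjusted p = 0.0265), neither of which passed with AKR/J left out (0.2136 and 0.5084), nor did the Hspa4l probe set without AKR/J controls 2 and 3 (0.128). The Hspa1b differences were 0.52, 0.40 and 0.45 (adjusted p = 0.5541, 0.6452 and 0.6005), and their 95% intervals, from -0.22 at the lowest to 1.18 at the highest, include 0. Hspa1a, near the lowest values in liver, went the other way by -0.35 (95% interval -0.58 to -0.11, limma adjusted p = 0.1496). It passed without the arrays that stand apart (-0.53, 0.0013) and without sleep-deprived C57BL/6J brain array 1 (-0.42, 0.0295).

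Within strains, the brain response was asked of each strain alone. Hspa1b and Hsph1 rose in AKR/J and DBA/2J on all of their probe sets, and Hspa8 rose on 1420623_x_at in AKR/J. In C57BL/6J no member passed by limma. An unadjusted p under 0.05 was found for 7 of 25, and the share of all probe sets at that level was not counted. AKR/J had 6 calls of 25, DBA/2J 5 and C57BL/6J 0, all higher, where 0.193%, 0.0711% and 0.02% of all probe sets rose and 0.107%, 0.0333% and 0.0178% fell. The change of Hspa1b on 1427127_x_at was 1.72 ± 0.21 for AKR/J (adjusted p = 0.000606), 1.77 ± 0.21 for DBA/2J (0.000889) and 1.08 ± 0.21 for C57BL/6J (0.1222), though all sleep-deprived C57BL/6J arrays lay above their controls. Hsph1 1425993_a_at changed by 0.63, 0.67 and 0.36 in the same order. The test for a difference between strains called 0 of 25, and 0% of all probe sets, with no unadjusted p under 0.05 among the members (lowest 0.0507 for Hspa1b 1452318_a_at), so a difference between strains was not shown. Without AKR/J controls 2 and 3, 0 members passed in AKR/J, where Gh also differed between conditions, while the changes were 1.48 for Hspa1b 1427127_x_at, 0.60 for Hsph1 1425993_a_at and 0.35 for Hspa8 1420623_x_at. On the arrays of the strain alone 1 passed in AKR/J and 1 in DBA/2J. Leaving out single arrays of the strain ended the calls of Hspa1b 1427126_at, Hspa1b 1452318_a_at and Hsph1 1423566_a_at in DBA/2J (adjusted p = 0.0551 to 0.123), and of Hsph1 1423566_a_at and Hspa8 in AKR/J (0.0504 to 0.134).

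In liver, Hsph1 and Hspa8 rose in every strain. Hspa4 1435194_at rose in AKR/J and DBA/2J, Hspa4l on 5 of 5 probe sets in AKR/J and on 2 in DBA/2J, and the 3 Hspa1b probe sets passed in AKR/J. A strain difference was not shown for Hspa1b (lowest adjusted p of the interaction 0.9353 by limma). C57BL/6J had 5 calls of 25, AKR/J 14 and DBA/2J 8, all higher, where 0.524%, 0.451% and 0.457% of all probe sets rose and 0.091%, 0.26% and 0.171% fell. Hspa1b 1427127_x_at gave 1.90 ± 0.43 for C57BL/6J (limma adjusted p = 0.0508), 2.22 ± 0.43 for AKR/J (0.0166) and 1.63 ± 0.43 for DBA/2J (0.1021). On the arrays of each strain alone it passed in C57BL/6J (0.0429) and DBA/2J (0.00574) and not in AKR/J (0.0788), and with the replicate block it passed in C57BL/6J (0.0138) and DBA/2J (0.0412) too. It also passed in C57BL/6J (0.00441) and DBA/2J (0.0202) without sleep-deprived AKR/J array 3, which stood well above its partners. Without that array the other Hspa1b probe sets passed in C57BL/6J too (1427126_at 0.00557, 1452318_a_at 0.0161). In DBA/2J 1427126_at then passed as well (0.0143). The call of 1427127_x_at in AKR/J was lost without control 1 (0.0855) or control 3 (0.0635) of that strain. The call of 1427126_at was lost without either of these (0.0857 and 0.0958) or the high sleep-deprived array 3 (0.0503), and that of 1452318_a_at without any of 14 single arrays, its change being 1.26 (0.113) without sleep-deprived array 3, against 2.02 with it. Hspa4l 1418253_a_at changed by 0.15 ± 0.18 for C57BL/6J, 0.98 ± 0.18 for AKR/J and 1.07 ± 0.18 for DBA/2J. Without AKR/J controls 2 and 3 the count in AKR/J was 5, which were the 2 Hsph1 and 3 Hspa8 probe sets, while the changes of others were 2.63 for Hspa1b 1427127_x_at, 1.00 for Hspa4l 1418253_a_at and 0.69 for Hspa4 1435194_at.

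**Figure D4:**
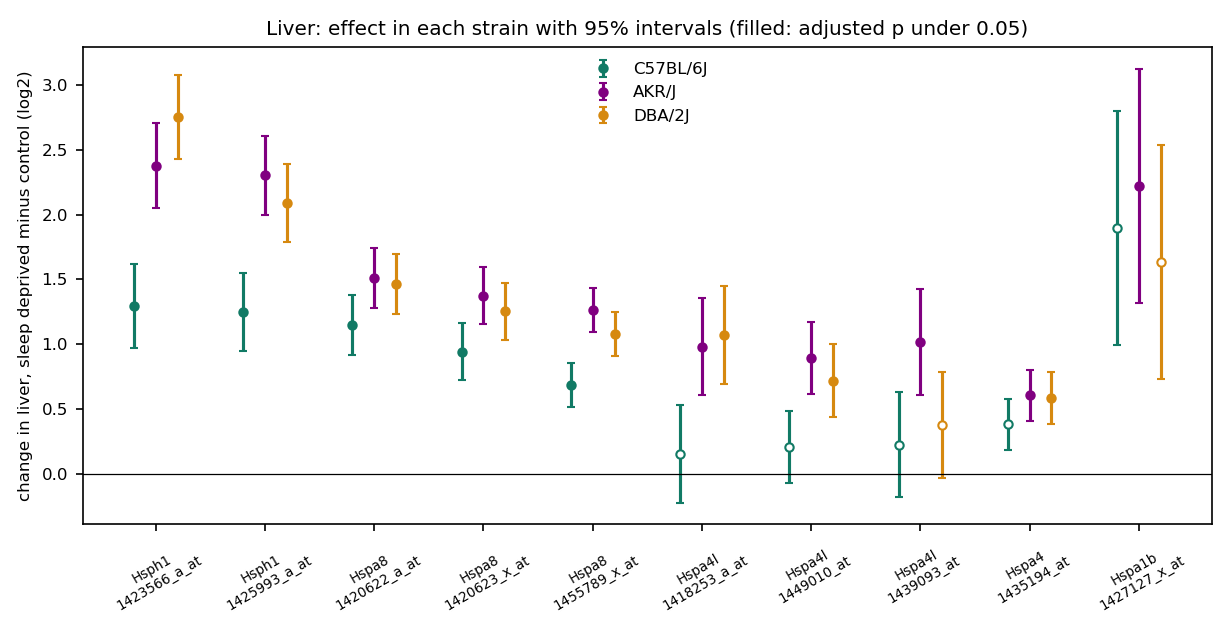
Change in liver, sleep-deprived minus control, on the log2 scale (y axis) in each strain for 10 probe sets of Hsph1, Hspa8, Hspa4l, Hspa4 and Hspa1b (x axis), with 95% intervals, filled where the adjusted p was under 0.05. For Hsph1 1423566_a_at the points are 1.29 for C57BL/6J, 2.38 for AKR/J and 2.75 for DBA/2J.

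The size of the liver response was then compared between strains. Hsph1 1423566_a_at rose least in C57BL/6J (1.29 ± 0.16), while AKR/J had 2.38 ± 0.16 and DBA/2J 2.75 ± 0.16. Limma's F test called this 1 of 25 probe sets (adjusted p = 0.0329), where 0.0333% of all probe sets were called. At an unadjusted p under 0.05 there were 11 of the 25, and the share of all probe sets at that level was not counted. The rise in DBA/2J exceeded that in C57BL/6J by 1.46 (95% interval 1.00 to 1.92). The rise in AKR/J exceeded that in C57BL/6J by 1.08 (0.62 to 1.55), while DBA/2J and AKR/J differed by 0.38 (-0.09 to 0.84). These intervals are not adjusted over probe sets, and AKR/J minus C57BL/6J did not pass as a pair (limma adjusted p = 0.1648). The other Hsph1 probe set rose by 1.25, 2.30 and 2.09 in the same order and did not pass (adjusted p = 0.1825 by limma). The call on 1423566_a_at was lost with AKR/J left out (0.065), without AKR/J controls 2 and 3 (0.0751), where the other Hsph1 probe set passed in its place (0.0358), and when 12 of the 18 arrays were left out singly, all 6 of C57BL/6J among them (adjusted p at most 0.0949). For Hspa8 1455789_x_at, with 0.69, 1.26 and 1.08, the adjusted p was 0.2313.

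The strains were also compared among controls. In liver, DBA/2J was lower than C57BL/6J for Hspa8 on 3 of 4 probe sets and for Hspa4 on 1435194_at. DBA/2J was also lower for Hspa4l on 2 of 5 and for Hsph1 on 1 of 2. AKR/J was lower than C57BL/6J for Hspa8 on 3 of 4 and for Hspa4 on 1435194_at. The remaining Hspa4 probe sets were not called, and 1416146_at differed the other way, by 0.29 ± 0.09 in AKR/J minus C57BL/6J (limma adjusted p = 0.0694). The Hspa4 call for AKR/J was lost without its controls 2 and 3 (-0.47, 0.129), as was that of Hspa8 1420623_x_at (-0.57, 0.0701), and the Hspa4 call also without any of 3 single controls (0.0625 to 0.0962). Of the calls against C57BL/6J, 5 of 7 for DBA/2J and 2 of 4 for AKR/J held under all 26 alternatives. In DBA/2J minus C57BL/6J 7 of 25 were lower and 0 higher, in AKR/J minus C57BL/6J 4 were lower and 0 higher, and in DBA/2J minus AKR/J 1 was lower, where 2.23%, 2.07% and 1.91% of all probe sets were lower and 3.34%, 3.02% and 2.3% higher. In controls the means of Hspa8 1455789_x_at were 10.82 ± 0.10 for DBA/2J, 10.72 ± 0.08 for AKR/J and 11.44 ± 0.07 for C57BL/6J (SD, n = 3), a difference of -0.62 ± 0.08 for DBA/2J (limma adjusted p = 4.87e-05) and -0.72 ± 0.08 for AKR/J (7.77e-06) from C57BL/6J. Hsph1 1423566_a_at stood at 5.51 ± 0.37 for DBA/2J, 6.10 ± 0.10 for AKR/J and 6.56 ± 0.08 for C57BL/6J. Here DBA/2J was below C57BL/6J (-1.05, adjusted p = 0.000223) and below AKR/J (-0.58, 0.0374), and the difference of AKR/J from C57BL/6J was -0.46 (0.1038). The call of DBA/2J against AKR/J was lost without control 1 of DBA/2J (0.200), the array of raised 3′ to 5′ difference. It was also lost without any AKR/J control (0.0561 to 0.130) or controls 2 and 3 together. In the main setting 1425993_a_at did not pass in any pair. Some alternatives gained calls. On 1423566_a_at, AKR/J minus C57BL/6J passed without control 1 of DBA/2J (0.0293) and with the replicate block (0.0370). On 1425993_a_at, DBA/2J minus C57BL/6J (-0.43) passed with the replicate block (0.0499) and with quantile normalisation (-0.51, 0.0395). The comparisons of controls and the changes with sleep deprivation share the control arrays. In brain 0 of 25 passed by limma in DBA/2J minus C57BL/6J, AKR/J minus C57BL/6J and DBA/2J minus AKR/J. Of all probe sets 1.9%, 2% and 1.59% passed in the same order. At an unadjusted p under 0.05 the member counts were 6, 4 and 1, and the share of all probe sets at that level was not counted.

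Partners of the HSP70 cycle were read from lists, each gene by its brightest probe set in the tissue. Of all probe sets, 0.688% rose and 1.04% fell in brain, and 2.4% rose and 1.21% fell in liver, as given above. Of 20 cytosolic cochaperones 7 rose and 0 fell in brain, with a list median of 0.07. They were led by the J-domain genes Dnajb1 (0.55 ± 0.07) and Dnajb5 (0.40 ± 0.08), Stip1 (0.38 ± 0.07), an adaptor between HSP70 and HSP90, and Dnaja4 (0.31 ± 0.07). The count was 0 with AKR/J left out and 1 without AKR/J controls 2 and 3. In liver 5 of 20 rose and 0 fell: Stip1 by 0.92 ± 0.06, Dnajb1 by 0.71 ± 0.09, the exchange factor Bag3 by 0.66 ± 0.11, Dnajb2 by 0.65 ± 0.09 and Dnaja1 by 0.51 ± 0.05. Dnajb1, Stip1, Bag3 and Dnaja1 were called in both tissues.

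Other cytosolic heat shock genes moved in the same direction. In brain 6 of 10 measured rose and 0 fell (median 0.29), among them the small heat shock genes Hspb1 (0.95 ± 0.08) and Cryab (0.45 ± 0.07) and the HSP90 cochaperones Chordc1 (0.70 ± 0.07) and Ahsa1 (0.36 ± 0.05), and 3 with AKR/J left out. In liver 7 of 10 rose and 0 fell, with Hspb1 at 1.17 ± 0.12, the inducible HSP90 gene Hsp90aa1 at 1.02 ± 0.06, Chordc1 at 0.99 ± 0.06 and Hspb8 at 0.60 ± 0.09. The partners of Hspa9 in mitochondria stayed mostly below the threshold: 1 of 10 rose in brain, the chaperonin gene Hspd1 (0.20 ± 0.04, adjusted p = 0.0249 by limma), and 0 of 10 in liver, with counts of 0 to 3 and 0 to 1 over the alternative settings. Among 7 further HSP70-like genes, Hspa5, the form of the endoplasmic reticulum, was the 1 call in each tissue. It rose by 0.38 ± 0.06 in liver and by 1.07 ± 0.05 in brain, and its companion Hyou1 gave 0.21 (adjusted p = 0.1167) in liver and 0.06 (0.7582) in brain, and the list had 0 to 2 calls in liver over the alternative settings. Over all probe sets the median change was -0.01 in liver and -0.00 in brain.

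Genes were ranked by Pearson's r with a member over the 18 arrays of a tissue, which share strains and conditions, and r is given as a description. Candidates were probe sets of a single gene, not a member, with a mean above the tissue's median probe set (20014 in brain, 19836 in liver). Each member was read by its brightest probe set in the tissue, which for Hspa1b was 1427126_at in brain and 1452318_a_at in liver. In brain Hspa1b was closest to Dio2 (0.97), Hspb1 (0.97), Ahsa1 (0.95), Glul (0.95) and Homer1 (0.95). Hspa8 was closest in brain to Hspa5 (0.98), Xbp1 (0.97), Chordc1 (0.97), Hnrnpc (0.97) and Calr (0.96), and Hsph1 to Dio2 (0.98), P4ha1 (0.97), Hexim1 (0.97), Pdia6 (0.97) and Hspb1 (0.96). Calr and Pdia6 belong with Hspa5 to the protein folding system of the endoplasmic reticulum. In liver the nearest were Bag3 (0.90), Atp2a2, Ablim3, Dnajb1 and Hnrnph1 (0.87) for Hspa1b. For Hspa8 they were Serpinh1 (0.96), a collagen chaperone, Hsp90aa1 (0.94), Stip1, Hspb1 and Tra2a (0.92), and for Hsph1 Chordc1 (0.97), Ahsa1 (0.94), Stip1 (0.94), Dnaja1 (0.94) and Nadk (0.93).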

How the data were processed

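Expression values of 36 arrays, 3 for each of 12 groups of tissue, strain and condition, were used as deposited. The authors made these log2 values with RMA, per the submitters' processing notes, which name no version. RMA corrects for background, equalises the distributions of arrays processed together and combines the probes of each set, so it understates changes near background and cannot show a shift of most genes at once. Medians of 4.77 (brain) and 4.10 (liver) differed, and the tissues were taken as normalised apart. Arrays have no sequencing depth, and their number limits the precision. Genes were named from the platform's annotation, with the members' names checked through gene identifiers in a RefSeq table, and 64 control probe sets of 45101 were left out.

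The limma package (3.58.1, on R 4.3.3) fitted 6 group means to the 18 arrays of a tissue, without a replicate block, and liver minus brain as 12 group means over 36. Changes are sleep-deprived minus control with standard errors from the fit, p-values are two-sided, and the Benjamini-Hochberg adjustment ran over 45037 probe sets with a threshold of 0.05. The scripts were tested on simulated data. The named genes are every member probe set, up to 4 called genes of each of 4 partner lists with the largest change, any called gene beyond these being chosen after its values were seen (Dnaja1 in liver), Hspa5, Hyou1 and Gh always, marker genes that passed (chosen likewise), and the 5 genes most correlated with each of Hspa1b, Hspa8 and Hsph1. Members and lists were chosen with earlier results of these data known. List genes with no single-symbol probe set were not counted. Alternatives were an intensity trend with robust variances, median centring, quantile normalisation, a filter on dim probe sets, a replicate block, a strain's or the controls' arrays alone, and leaving out single arrays, AKR/J, the AKR/J controls of conflicting label, or the arrays that an earlier account of these data found to stand apart.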

Additional observations from a re-analysis of the deposited data

Results flagged for a closer look

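The response of Hsph1 1423566_a_at in liver differed between the 3 strains by limma's F test (adjusted p = 0.0329), with the smallest rise in C57BL/6J. It was listed because the difference between strains passed the test itself. The call depends on AKR/J and on single arrays, as given above, and the other Hsph1 probe set did not pass (0.1825). Without AKR/J controls 2 and 3 the calls changed places: 1423566_a_at was at 0.0751 and 1425993_a_at at 0.0358.

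For 7 member probe sets, the change with sleep deprivation differed between liver and brain by limma's test of the difference, and each was larger in liver. These were Hsph1 1423566_a_at (1.55) and 1425993_a_at (1.33), Hspa8 1420622_a_at (1.08), 1420623_x_at (0.86) and 1455789_x_at (0.80), Hspa4l 1449010_at (0.40) and Hspa4 1435194_at (0.36). The first 5 kept the call under all 44 alternatives, and the last 2 lost it under 2 each.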

How the results depend on the processing

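Of 3797 recomputed values for 140 results of single member probe sets, 3537 kept their side of the threshold, 171 lost the call and 89 gained one. The sign changed for 55, of which 0 were called in either setting. In the mean effects, 5 of 8 calls in brain and 11 of 14 in liver held under all 26 alternatives. Counts of called members that moved by over 1.5 times are given next, and the cause was not tested. The share of all probe sets called under each alternative is not given here. Whether calls moved over the whole array as well therefore cannot be read from these counts. With AKR/J left out the brain mean effect had 5 (main setting 8) and the liver interaction 0 (main setting 1). Without AKR/J controls 2 and 3 the effect in AKR/J had 0 in brain (6) and 5 in liver (14), the liver controls had 2 for AKR/J minus C57BL/6J (4) and 0 for DBA/2J minus AKR/J (1). On a strain's arrays alone, brain gave 1 in AKR/J (6) and 1 in DBA/2J (5). The brain effect in C57BL/6J (0) gave 1 with trend and robust variances, 3 with quantile normalisation and 2 without the arrays that stand apart. Brain controls (0) gave 1 for AKR/J minus C57BL/6J and 1 for DBA/2J minus C57BL/6J with quantile normalisation, and DBA/2J minus C57BL/6J also 2 without the arrays that stand apart and 2 on control arrays alone. The liver interaction gave 2 with trend and robust variances. Liver controls of DBA/2J minus AKR/J gave 0 without control 1 of DBA/2J and 0 on control arrays alone.

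Leaving out single arrays gave 7 to 10 calls for the brain mean effect, 13 to 14 for liver and 7 to 8 for liver minus brain. In brain the range was 0 to 1 in C57BL/6J, 4 to 7 in AKR/J and 2 to 5 in DBA/2J, and in liver 5 to 8, 8 to 14 and 6 to 11. The interaction ranged over 0 to 0 in brain and 0 to 1 in liver. For controls, in the order AKR/J minus C57BL/6J, DBA/2J minus C57BL/6J and DBA/2J minus AKR/J, brain gave 0 to 0, 0 to 1 and 0 to 0, and liver 3 to 6, 5 to 9 and 0 to 2.

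The numbers were not taken to pair the arrays, since not every same-numbered pair had deviations correlated over 0.1: 23 of 45 did in brain (median 0.11, against 0.08 for pairs of other numbers) and 5 of 45 in liver (-0.00, against -0.01). Same-numbered pairs in brain ran from -0.56 to 0.61. Any low pair fails this rule, so it cannot show that the numbers carry no pairing. The replicate block gave 7 calls for the brain mean effect and 14 for liver and moved no count by over 1.5 times. Over the 140 results of single member probe sets, called or not, it lost 1 call and gained 5. With 3 arrays a group, changes in a single strain are poorly measured, and Hspa1a in liver lies near the lowest values.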
